A study of Rattus norvegicus with 6 samples.

Results

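The cathepsins are proteases of the lysosome, and 6 cathepsin genes were followed here in whole rat ovaries: Ctsb, Ctsc, Ctsd, Ctsh, Ctsl and Ctss. They were taken as every probe set whose annotation gives exactly 1 of these symbols, which came to 9 of the 8799 probe sets on the array (Affymetrix Rat Genome U34, Set A). Ctsc, Ctsd and Ctsl have 2 probe sets each and the others 1. All 9 passed the filter on dim probe sets and were among the 6118 tested. A probe set is a group of short probes read out as a fluorescence intensity, and its probes can match more than 1 transcript. Probe sets of the same gene are not replicates of a condition. The 2 Ctsc probe sets are built on the same source sequence.

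The 6 arrays fell into 3 groups of 2. The cultured group held ovaries removed from female rat pups on the day of birth and kept for 7 days on floating filters, in DMEM-Ham's F-12 medium with bovine serum albumin, Albumax, transferrin, insulin, ascorbic acid, penicillin and streptomycin. The P4 group held ovaries removed on postnatal day 4, and the P0 group ovaries removed on the day of birth. Each array carried RNA of a pool of about 20 ovaries, the labels call the pools of a group independent, and they name no strain. The series text also speaks of progesterone given to cultured ovaries. No sample label mentions it, so whether either cultured pool received it is not settled, and both are taken here as replicates of 1 condition. The arrays' chip identifiers fall into 4 batches: P4 and P0 arrays of the same replicate number share a batch (A for replicate 1, B for replicate 2), and each cultured array has a batch of its own. No batch holds cultured and freshly collected ovaries together. No group held ovaries freshly collected on day 7, so culture and the added days of age cannot be told apart. A rise or fall in culture below means only a higher or lower level in the cultured group.

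Cathepsins are made as inactive proenzymes and are activated in the acid interior of endosomes and lysosomes, where they break down proteins brought in by endocytosis or autophagy. Ctsb, Ctsc, Ctsh, Ctsl and Ctss encode papain-like cysteine proteases, held in check by cystatins, and Ctsd encodes an aspartic protease. Most cells express Ctsb, Ctsd and Ctsl, whereas Ctss is best known from macrophages and other antigen-presenting cells. In the rodent ovary, granulosa cells of ovulatory follicles are known to express Ctsl, and macrophages clear dying cells.

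Ctsb, Ctsc, Ctsd and Ctss were higher in cultured than in P0 ovaries. Ctsl and Ctsh did not pass in that comparison. They and Ctss had lower values at P4 than at P0 without overlap between the groups, as 25.7% of all tested probe sets did. No cathepsin passed between P4 and P0 unless the chip batch entered the fit. The regions just before the RefSeq starts (build GRCr8) of 3 of these genes are shown here to set the immune-associated Ctss beside the widely expressed Ctsd, which also rose in culture, and beside Ctsl, which did not pass there. Each run covers 250 bases, 5′ to 3′ on the gene's strand. Capitals mark in Ctss the letters GAAA, any 2 bases and GAAA again, a core of interferon-stimulated response elements, CACGTG in Ctsd, an E-box that lysosomal gene regulators of the TFEB family can bind, and GGGCGG or its reverse complement in Ctsl, the GC box.
Ctss, chr2:185775146-185775395, plus strand: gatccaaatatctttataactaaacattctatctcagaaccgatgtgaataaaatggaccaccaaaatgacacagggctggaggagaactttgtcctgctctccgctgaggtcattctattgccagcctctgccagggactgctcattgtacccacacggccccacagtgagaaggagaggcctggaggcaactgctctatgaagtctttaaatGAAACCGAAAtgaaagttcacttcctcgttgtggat
Ctsd, chr1:206968822-206969071, minus strand: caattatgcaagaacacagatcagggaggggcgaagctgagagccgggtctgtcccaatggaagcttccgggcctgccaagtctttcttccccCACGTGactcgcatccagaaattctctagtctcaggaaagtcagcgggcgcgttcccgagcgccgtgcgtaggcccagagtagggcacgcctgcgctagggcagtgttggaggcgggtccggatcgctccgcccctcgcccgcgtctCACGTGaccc
Ctsl, chr17:769854-770103, plus strand: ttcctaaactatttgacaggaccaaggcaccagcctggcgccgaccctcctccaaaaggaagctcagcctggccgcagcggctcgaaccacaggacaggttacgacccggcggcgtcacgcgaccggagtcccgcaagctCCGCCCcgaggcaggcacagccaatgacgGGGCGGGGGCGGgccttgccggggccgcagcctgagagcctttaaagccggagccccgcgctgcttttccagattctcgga

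The table of promoters held 5 of the 6 genes. Ctsb had no entry. Both strands were searched. The Ctss window held 1 match to the interferon element core, with its first base 36 bases before the start, and of 33469 rat promoter windows of this length 3.41% held this motif. The Ctsd window held 2 CACGTG motifs, beginning 157 and 10 bases before the start, against 5.59% of all windows with any. The second lies within a longer TCACGTGA, which 0.657% of windows held. CACGTG was absent from the Ctsc, Ctsl and Ctss windows, and the interferon element core from those of Ctsc, Ctsd and Ctsl. The Ctsl window held 3 GGGCGG motifs, a motif found in 30.5% of windows, while the Ctsc and Ctsd windows held 1 each. The Ctsh window held none of the motifs searched, which also included TATAAA (12.9% of windows). The Ctss window held 1 TATAAA, 238 bases before the start on the opposite strand. Another RefSeq model of Ctss begins inside this window. These are matches of letters, and nothing on binding was measured.

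**Figure D1:**
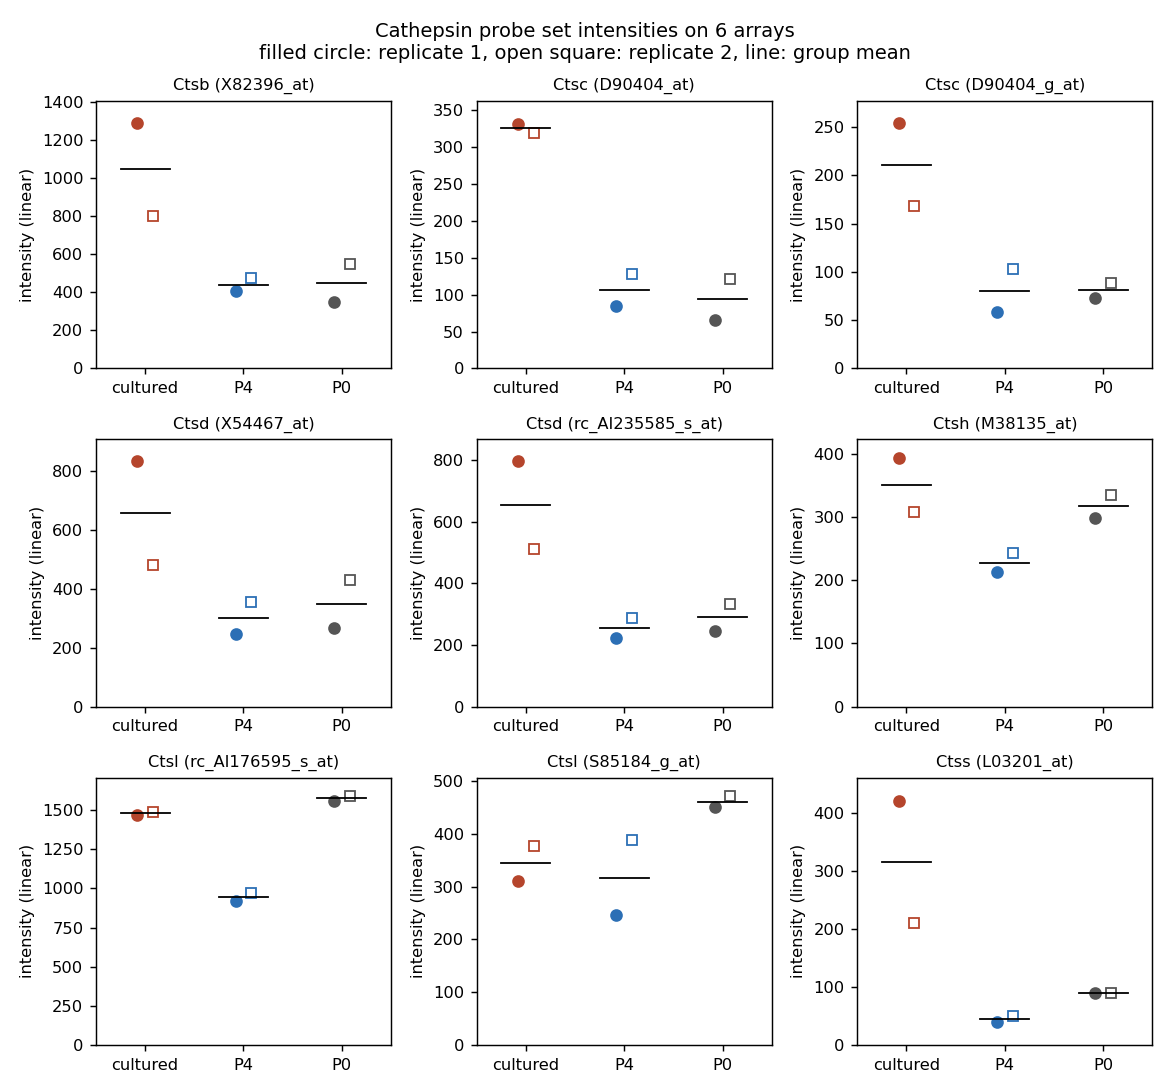
Intensity (linear, as deposited) of each of the 9 cathepsin probe sets on the 6 arrays, with cultured, P4 and P0 ovaries from left to right. Filled circles are replicate 1, open squares replicate 2, and lines the group means. Ctss, Ctsc, Ctsb and Ctsd sit highest on the cultured arrays, and Ctsl is highest at P0 on each of its probe sets.

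Ctss, the cysteine protease that trims the invariant chain from MHC class II molecules, had the largest change of the family between cultured and P4 ovaries. Its probe set (L03201_at) read 419.8 and 210.4 in cultured ovaries, 39 and 50 in P4 ovaries, and 89.5 and 90 in P0 ovaries. The 3 groups did not overlap, with cultured highest and P4 lowest, and the cultured arrays stood farther apart from each other than those of the other groups. Cultured ovaries averaged 315 ± 148 against 89.8 ± 0.354 in P0 ovaries (SD, n = 2), a log2 change of 1.65 (SE 0.31, adjusted p = 0.0161). Against P4 ovaries (44.5 ± 7.78) the log2 change was 2.56 (SE 0.31, adjusted p = 0.00212). Log2 changes throughout are of the intensity plus a pseudocount of 7.7, which understates changes of dim probe sets, and adjusted p values are limma's over all 6118 probe sets. Leaving out each of the 6 arrays in turn kept the call against P4 (adjusted p at most 0.0175), whereas that against P0 was lost without P0 replicate 1, P0 replicate 2 or cultured replicate 1 (highest adjusted p = 0.0904).

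Ctsc encodes the dipeptidyl peptidase that activates serine proteases of immune cell granules. Its brighter probe set had the largest change of the family between cultured and P0 ovaries, close to that of Ctss (log2 change 1.65). Its other probe set changed by less than Ctss. The brighter Ctsc probe set (D90404_at) read 332.2 and 319 in cultured ovaries, 85.1 and 128.1 in P4 ovaries, and 66.3 and 121.9 in P0 ovaries. The cultured arrays lay close together and above all others, while P4 and P0 overlapped. The log2 change was 1.77 against P0 (SE 0.30, adjusted p = 0.0113) and 1.57 against P4 (SE 0.30, adjusted p = 0.0234). Its other probe set (D90404_g_at) read 254.1 and 168.2 in cultured ovaries, 58.6 and 102.5 in P4 ovaries, and 72.8 and 89 in P0 ovaries. It passed against P0 (log2 change 1.28, adjusted p = 0.0405) but not against P4 (log2 change 1.33, adjusted p = 0.0539), with the cultured arrays again above the rest. The brighter probe set lost its call against P0 without P0 replicate 1 or either cultured array (highest adjusted p = 0.0944), and its call against P4 without P4 replicate 1 or either cultured array (highest adjusted p = 0.164). It also missed the threshold against P4 with quantile normalization (adjusted p = 0.0511).

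Ctsb encodes an abundant lysosomal protease that cuts inside proteins and also trims dipeptides from their ends. It read 1291.8 and 800.7 in cultured ovaries, 407.5 and 473.2 in P4 ovaries, and 351 and 551 in P0 ovaries. Both cultured arrays lay above the other 4, and P4 and P0 overlapped. Cultured ovaries averaged 1046 ± 347 against 451 ± 141 in P0 ovaries (SD, n = 2; log2 change 1.20, SE 0.28, adjusted p = 0.0396). Against P4 ovaries (440 ± 46.5) the log2 change was also 1.20, and did not pass (adjusted p = 0.0599, or 0.0315 where the 4 arrays compared were fitted alone).

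Ctsd, the aspartic protease of the group, has 2 probe sets that moved much alike. The X54467_at probe set read 833.7 and 480.4 in cultured ovaries, 246.6 and 355 in P4 ovaries, and 266.8 and 429.7 in P0 ovaries. The rc_AI235585_s_at probe set read 797.9 and 513.2 in cultured ovaries, 223.2 and 288.8 in P4 ovaries, and 247.2 and 333.5 in P0 ovaries. On each, both cultured arrays lay above all others. The second passed against P0 (log2 change 1.14, SE 0.27, adjusted p = 0.0396) and against P4 (log2 change 1.31, SE 0.27, adjusted p = 0.0311). The first had log2 changes of 0.89 against P0 (adjusted p = 0.15) and 1.08 against P4 (adjusted p = 0.137), and did not pass. The calls of Ctsb, Ctsc and Ctsd were each lost in some of the fits without 1 array. The Ctsb call against P0 was lost without P0 replicate 1 or either cultured array (highest adjusted p = 0.24). The calls of the dimmer Ctsc probe set and of the second Ctsd probe set against P0 were lost without any P0 or cultured array (highest adjusted p = 0.226 and 0.233). The Ctsd call against P4 was lost without P4 replicate 1 or either cultured array (highest adjusted p = 0.23), with no filter on dim probe sets (adjusted p = 0.0512) and with no intensity trend in the prior variance (adjusted p = 0.0719). The Ctsb call and these last Ctsc and Ctsd calls against P0 also missed the threshold with no filter on dim probe sets, with quantile normalization and with no intensity trend in the prior variance (adjusted p between 0.0572 and 0.0874).

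Ctsl, a broadly expressed endopeptidase, behaved otherwise. Its brighter probe set (rc_AI176595_s_at) read 1468.9 and 1488.6 in cultured ovaries, 919.2 and 969 in P4 ovaries, and 1558.4 and 1593.2 in P0 ovaries. Replicates lay close together, P4 was lowest, and the cultured arrays lay just under the P0 arrays. The log2 change was -0.09 for cultured against P0 (SE 0.15, 95% interval -0.43 to 0.24, adjusted p = 0.791). It was 0.64 for cultured against P4 (SE 0.15, adjusted p = 0.0597, or 0.0396 with quantile normalization). The dimmer probe set (S85184_g_at) read 311.6 and 376.9 in cultured ovaries, 245.5 and 388.7 in P4 ovaries, and 450.2 and 471.5 in P0 ovaries. On it P0 was again highest, but cultured and P4 overlapped, with log2 changes of -0.42 against P0 (adjusted p = 0.377) and 0.15 against P4 (adjusted p = 0.882). The probe sets of Ctsl thus differed in where the cultured arrays lay. Centred on their means over the 6 arrays, their log2 values had a root mean square difference of 0.27, against 0.15 between the Ctsd pair and 0.30 between the Ctsc pair.

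Ctsh, which trims amino acids from the start of proteins, read 394 and 307.8 in cultured ovaries, 212.5 and 243.7 in P4 ovaries, and 299 and 335.4 in P0 ovaries. Cultured and P0 arrays overlapped and P4 was lowest. The log2 change was 0.13 for cultured against P0 (95% interval -0.34 to 0.61, adjusted p = 0.784) and 0.60 for cultured against P4 (95% interval 0.12 to 1.07, adjusted p = 0.224). Neither passed.

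**Figure D2:**
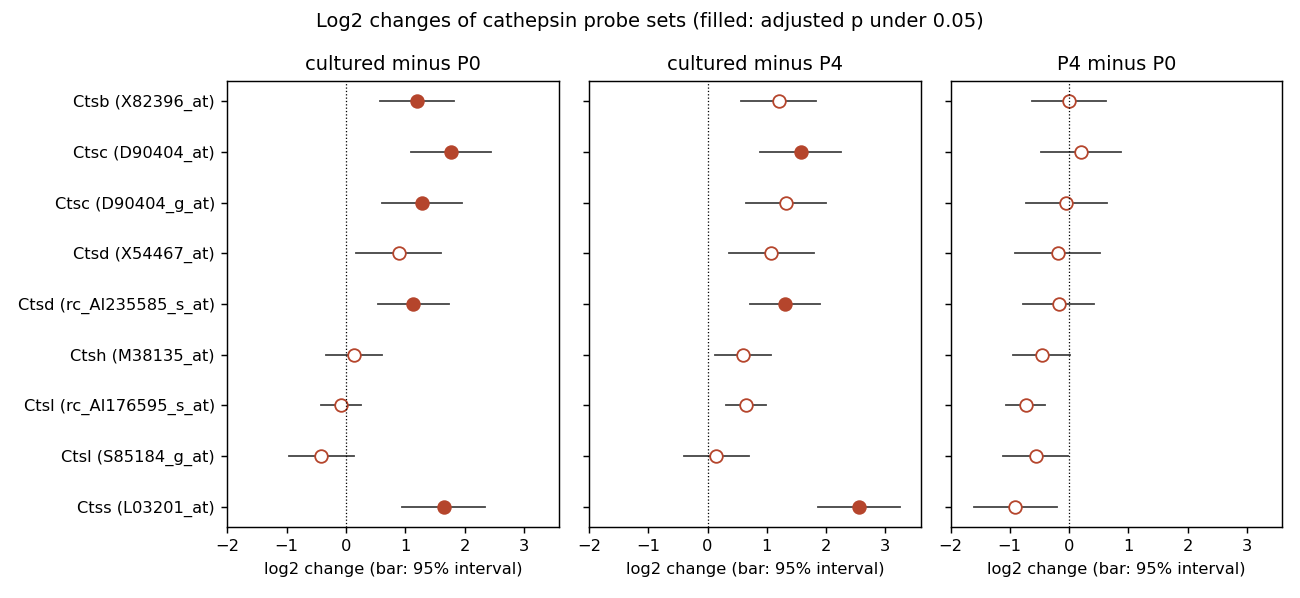
Log2 change of each cathepsin probe set in the 3 comparisons, with its 95% interval as a bar. Filled points passed at an adjusted p under 0.05: 5 for cultured minus P0, 3 for cultured minus P4 and 0 for P4 minus P0.

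Between cultured and P0 ovaries, 5 of the 9 probe sets rose, 0 fell and 4 did not pass, for 4 of the 6 genes. Of all tested probe sets 5.43% were called, of which 3.48% rose and 1.95% fell. The median log2 change of the 9 was 1.14, against -0.08 over all tested probe sets, and 6 of them had cultured arrays above both P0 arrays, as 21.3% of all did. The 2 Ctsl probe sets had cultured arrays below both P0 arrays, as 29% of all did. Between cultured and P4 ovaries, 3 of 9 rose, 0 fell and 6 did not pass, against 2.16% of all tested probe sets rising, 0.621% falling and 2.78% called in either direction. The median was 1.20 against -0.04 over all, and 8 of 9 had non-overlapping groups with culture higher, as 19.1% of all did, and 0 with culture lower, as 24.5% of all did. Both comparisons use the same cultured arrays. Without cultured replicate 1 or without P0 replicate 1, 0 of the 9 passed against P0 in limma, and 5 had an unadjusted p under 0.05. Without cultured replicate 2 the count was 1, and without P0 replicate 2 it was 2. Against P4, 1 passed without cultured replicate 1, cultured replicate 2 or P4 replicate 1. With the chip batch as a random block, 5 passed against P0 and 5 against P4. With no filter on dim probe sets, with quantile normalization or with no intensity trend, 2 passed against P0.

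The cathepsins did not spread evenly over the replicates. On 7 of the 9 probe sets cultured replicate 1 read above cultured replicate 2, by up to 0.97 on the log2 scale for Ctss, 0.79 and 0.63 for Ctsd and 0.68 for Ctsb. Over all tested probe sets, 44.2% read higher on cultured replicate 1, and 4.72% exceeded replicate 2 by at least 0.7. Among the 9, only Ctss (0.97) and the X54467_at probe set of Ctsd (0.79) did so. At P4 and at P0, all 9 read lower on replicate 1 (chip batch A) than on replicate 2 (chip batch B), by medians of 0.36 and 0.26, while 47.5% and 54.4% of all tested probe sets were higher on replicate 1. Cultured replicate 1 was highest of the 6 arrays for 7 of the 9 probe sets. Whether chip batch has a part in this was not tested.

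Markers of macrophages and leukocytes, the cells best known for Ctss, were higher in culture too. Of 12 tested marker genes, 7 rose against P0, 0 fell and 5 did not pass, with a median log2 change of 1.31, and 7 rose against P4, with a median of 1.66. Their summed intensity was 2906.4 to 5142.8 in cultured ovaries, 876.9 to 964.9 in P4 ovaries and 1183.3 to 1297.3 in P0 ovaries. None of the 12 was listed at 0 on any array. Lyz2, a lysozyme of macrophages and other myeloid cells, read 2267 and 955.7 in cultured ovaries, 89 and 102.8 in P4 ovaries, and 110.8 and 141.3 in P0 ovaries (log2 change against P0 3.48, adjusted p = 0.000587). Cyba, a subunit of the phagocyte oxidase, read 819.4 and 498.4 in cultured ovaries, 143.4 and 200.1 in P4 ovaries, and 237.5 and 262.1 in P0 ovaries (log2 change against P0 1.33, adjusted p = 0.0231). C1qb, a complement subunit made by macrophages, rose against P0 by 1.84 (adjusted p = 0.0284) and Cd14, the endotoxin coreceptor, by 1.14 (adjusted p = 0.0333). C1qc, another complement subunit, read 159.6 and 151.5 in cultured ovaries, 86.2 and 82.4 in P4 ovaries, and 138.3 and 163.8 in P0 ovaries. It did not pass against P0 (log2 change 0.04, adjusted p = 0.936).

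The leukocyte markers differed between the cultured arrays in the same direction as Ctss, Ctsb and Ctsd. They read higher on cultured replicate 1 for 11 of 12 genes, by a median of 0.84 on the log2 scale. Ptprc, the common leukocyte antigen, read 38.6 and 22.8 in cultured ovaries against 34.2 and 23.2 in P0 ovaries and did not pass (adjusted p = 0.94). The 3 listed markers too dim to be tested did not move alike. Csf1r, the macrophage growth factor receptor, read 20.9 and 9 in cultured ovaries, 6.7 and 6 in P4 ovaries, and 10.6 and 15.1 in P0 ovaries. Itgam, an integrin of myeloid cells, read 3.8 and 2.1 in cultured ovaries, 3.9 and 2.2 in P4 ovaries, and 7.5 and 5.5 in P0 ovaries. Coro1a, an actin-binding protein of leukocytes, read 97.2 and 50 in cultured ovaries, 3.2 and 2.8 in P4 ovaries, and 4.8 and 4.6 in P0 ovaries. Only Coro1a of these had cultured arrays above all others. The number of markers that passed against P0 was 2 without cultured replicate 1, 3 without P0 replicate 2 and 4 without P0 replicate 1. Their part in the cathepsin changes was not tested, and in RNA of whole ovaries more cells of a type and more RNA per cell cannot be told apart.

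**Figure D3:**
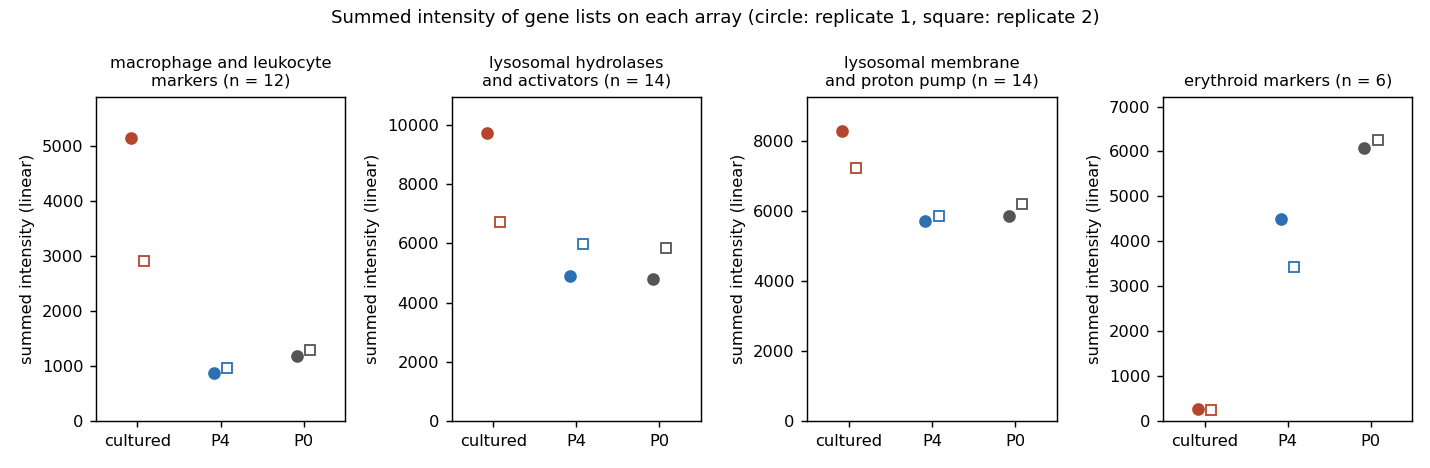
Summed intensity of 4 gene lists on each array, 1 tested probe set per gene, with cultured, P4 and P0 ovaries from left to right, circles for replicate 1 and squares for replicate 2. The macrophage and leukocyte sum was 2906.4 to 5142.8 in culture and 876.9 to 1297.3 elsewhere, and the erythroid sum was lowest in culture.

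Markers of some other cell types differed between the groups as well. Erythroid markers, a measure of blood, summed to 243.4 to 273.2 in cultured ovaries, 3417.8 to 4496.7 in P4 ovaries and 6084.4 to 6262.4 in P0 ovaries, and 3 of 6 fell against P0. Of 7 ovarian surface epithelium markers, 3 rose in culture against P0, 2 of which (Krt8 and Krt18) are also on the granulosa list. Granulosa markers summed to 2697.9 to 2777.6 in cultured ovaries, 4204.5 to 4907.4 in P4 ovaries and 3435.6 to 3590.6 in P0 ovaries. Oocyte markers summed to 3273.6 to 3370 in cultured ovaries, 4134.2 to 4455.2 in P4 ovaries and 1676.1 to 1842.5 in P0 ovaries, with all 9 tested genes above 0 on all arrays. Single bright genes weighed heavily in these sums. On P4 replicate 1, Inha read 1970.3 among the granulosa markers, and Zp2 and Zp3 read 1782.3 and 1466.7 among the oocyte markers. More cells of a type and more RNA per cell cannot be told apart in these sums. Of 14 granulosa genes 2 rose and 1 fell in culture against P0, and of 9 oocyte genes 3 rose and 2 fell. Of 4 endothelial and 10 smooth muscle markers 0 passed against P0 in limma, with 3 of each at an unadjusted p under 0.05, and of 17 stromal markers 1 fell. Smooth muscle markers read higher on cultured replicate 1 for 9 of 10 genes, by a median of 0.87 on the log2 scale. Their part in the cathepsin changes was not tested.

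Other genes of the lysosome were counted in the same way. Of 14 lysosomal hydrolases and activators other than cathepsins, 1 rose in culture against P0, 0 fell and 13 did not pass (5 of the 14 had an unadjusted p under 0.05), with a median log2 change of 0.12. That gene was Lyz2, which is also on the macrophage list. Psap, the precursor of the saposins that help degrade sphingolipids, read 3606 and 2372.9 in cultured ovaries, 1728 and 2373.9 in P4 ovaries, and 1646.1 and 2078.7 in P0 ovaries (log2 change against P0 0.66, adjusted p = 0.143). Ppt1, a lysosomal thioesterase, and Fuca1, the lysosomal fucosidase, had log2 changes of 0.64 and 0.55 (adjusted p = 0.121 and 0.129). Against P4 the list had 1 riser, again Lyz2, and a median of 0.19.

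Among 14 genes of the lysosomal membrane and its proton pump, 0 passed against P0 in limma (5 at an unadjusted p under 0.05), and 12 of 14 had a log2 change above 0, with a median of 0.35 against -0.08 over all tested probe sets. The pump subunit gene Atp6v1b2 had the smallest p (log2 change 0.69, adjusted p = 0.0963), followed by Atp6v0c (0.61, adjusted p = 0.122). Cd63, a membrane protein of late endosomes and lysosomes, read 1990.8 and 1912.7 in cultured ovaries, 1299.8 and 1120.3 in P4 ovaries, and 1492.1 and 1572.3 in P0 ovaries. It rose against P4 (log2 change 0.69, adjusted p = 0.0479), the 1 member that did, and did not pass against P0 (log2 change 0.35, adjusted p = 0.235). Its call against P4 was lost without any 1 array other than P0 replicate 2 (highest adjusted p = 0.252). Of 6 sorting and endocytic receptor genes, 0 passed against P0 or P4 in limma, with 1 at an unadjusted p under 0.05 in each. Among these, Igf2r, which carries newly made hydrolases to the lysosome, read 340.6 and 207.8 in cultured ovaries, 315.3 and 450.7 in P4 ovaries, and 335.7 and 328.2 in P0 ovaries. Of 3 tested autophagy genes, 0 passed against P0 or P4, again with 1 at an unadjusted p under 0.05 in each.

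Inhibitors of cysteine cathepsins were represented by 4 tested genes, of which 1 rose in culture against P0 and against P4. Cstb, the cytosolic cystatin B, read 713.9 and 611.2 in cultured ovaries, 313.2 and 340.3 in P4 ovaries, and 358.2 and 361.6 in P0 ovaries. Its log2 change was 0.86 against P0 (SE 0.19, adjusted p = 0.03) and 1.00 against P4 (SE 0.19, adjusted p = 0.0218), and the groups did not overlap. Each call was lost without any array of the groups compared (highest adjusted p = 0.174 and 0.168). Cst3, the secreted cystatin C, read 1201.2 and 1314 in cultured ovaries, 855.8 and 1242.3 in P4 ovaries, and 938.1 and 1485 in P0 ovaries, with overlap between cultured and P0 (log2 change 0.09, adjusted p = 0.881).

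**Figure D4:**
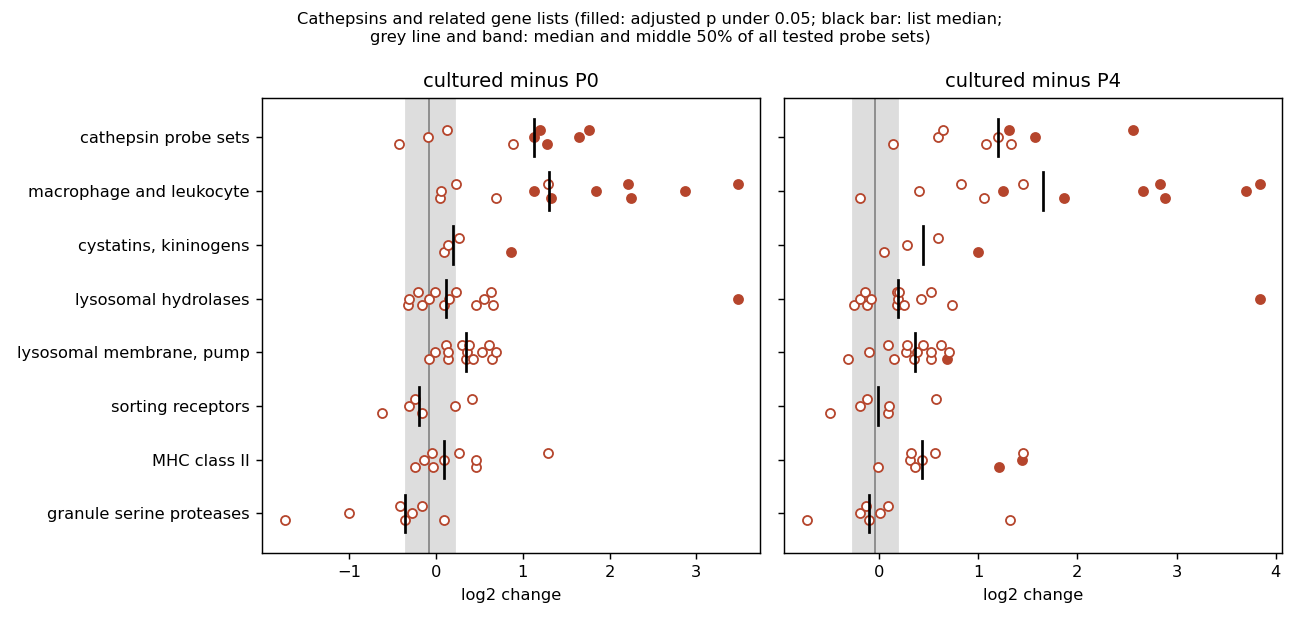
Log2 change in culture of the 9 cathepsin probe sets and of the genes of 7 related lists, 1 tested probe set per gene, against P0 (left panel) and P4 (right panel). Filled points passed, black bars are list medians, and the grey line and band are the median and middle 50% of all tested probe sets; the cathepsin median was 1.14 against P0 and that of the lysosomal membrane and proton pump list 0.35.

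Genes whose proteins work with Ctss and Ctsc were looked at alongside. Of 9 tested genes of MHC class II and its invariant chain, 0 passed against P0 in limma, with 1 at an unadjusted p under 0.05. Cd74, the invariant chain that Ctss cleaves, read 152.3 and 73.9 in cultured ovaries, 29.1 and 40 in P4 ovaries, and 25.4 and 58.6 in P0 ovaries (log2 change against P0 1.29, adjusted p = 0.103). Against P4, 2 of 9 rose: RT1-DMb, of the peptide-loading DM molecule (log2 change 1.44, adjusted p = 0.0165), and RT1-Da, a class II alpha chain (log2 change 1.21, adjusted p = 0.0294). These calls were lost without P4 replicate 1, P4 replicate 2 or cultured replicate 1 (highest adjusted p = 0.123 and 0.165). Of 7 granule serine protease genes, 0 passed against P0 or P4 in limma, with 2 and 1 at an unadjusted p under 0.05. Ctsc activates proteases of this class, though not necessarily the products of all 7. The mast cell chymase Cma1 read 165.5 and 46.9 in cultured ovaries, 155.4 and 150.9 in P4 ovaries, and 208 and 479.1 in P0 ovaries (log2 change against P0 -1.74, adjusted p = 0.0901). The other cathepsin that could be tested, Ctsk, a collagen-degrading protease of osteoclasts, read 308.3 and 399.2 in cultured ovaries, 161.9 and 230.7 in P4 ovaries, and 263.6 and 290.6 in P0 ovaries. Its log2 change was 0.33 against P0 (adjusted p = 0.475) and 0.83 against P4 (adjusted p = 0.124). Ctse and Ctsj were too dim to be tested.

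The comparison of P4 with P0 covers the days in which rat germ cell clusters break up and primordial follicles form. Of the 9 cathepsin probe sets 0 passed it in limma, against 1.08% of all tested probe sets (0.85% higher and 0.229% lower), and 3 of 9 had an unadjusted p under 0.05, all of them lower. The median log2 change of the 9 was -0.19, against -0.05 over all. Ctsl fell short of the threshold on its brighter probe set: P4 ovaries averaged 944 ± 35.2 against 1576 ± 24.6 in P0 ovaries (SD, n = 2; log2 change -0.73, SE 0.15, adjusted p = 0.0561). With the shared chip batch as a block, it passed (adjusted p = 0.0259). Its dimmer probe set was lower by less (-0.56 on the log2 scale) and did not pass with the block either (adjusted p = 0.365 without and 0.124 with it).

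Ctss had the largest difference of the 6 genes at P4, at 44.5 ± 7.78 against 89.8 ± 0.354 in P0 ovaries (SD, n = 2; log2 change -0.91, SE 0.31, adjusted p = 0.232). It too passed with the chip batch as a block (adjusted p = 0.0369). With the chip batch as a random block, the brighter Ctsl probe set passed (adjusted p = 0.00947) and Ctss did not. With the block, 2 of 9 cathepsin probe sets were lower and 0 higher, against 1.96% and 3.17% of all tested probe sets, 5.13% in all. Ctsh had a log2 change of -0.46 (adjusted p = 0.404). Ctsl, Ctsh and Ctss had P4 arrays below both P0 arrays on 4 probe sets, as 25.7% of all probe sets did. Meanwhile 0 lay above, as 18.6% of all did. Without overlap, each must also lie lower within each batch, so the batches add only the sizes. Ctss differed by -1.06 in batch A and -0.76 in batch B, Ctsh by -0.48 and -0.45, and the brighter Ctsl probe set by -0.76 and -0.71. The macrophage and leukocyte markers had a median of -0.36, with 10 of 12 genes lower at P4 and 0 passing without the block in limma (2 at an unadjusted p under 0.05), and 2 lower with it. Their part in the Ctss difference was not tested.

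Ctsb, Ctsc and Ctsd overlapped between P4 and P0 on each of their 5 probe sets. Their log2 changes were -0.00 for Ctsb (95% interval -0.63 to 0.62), 0.20 and -0.05 for Ctsc and -0.19 and -0.17 for Ctsd, with adjusted p of 0.86 or more. Ctsb differed by 0.21 in batch A and -0.22 in batch B, so its direction was not the same in the batches.

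**Figure D5:**
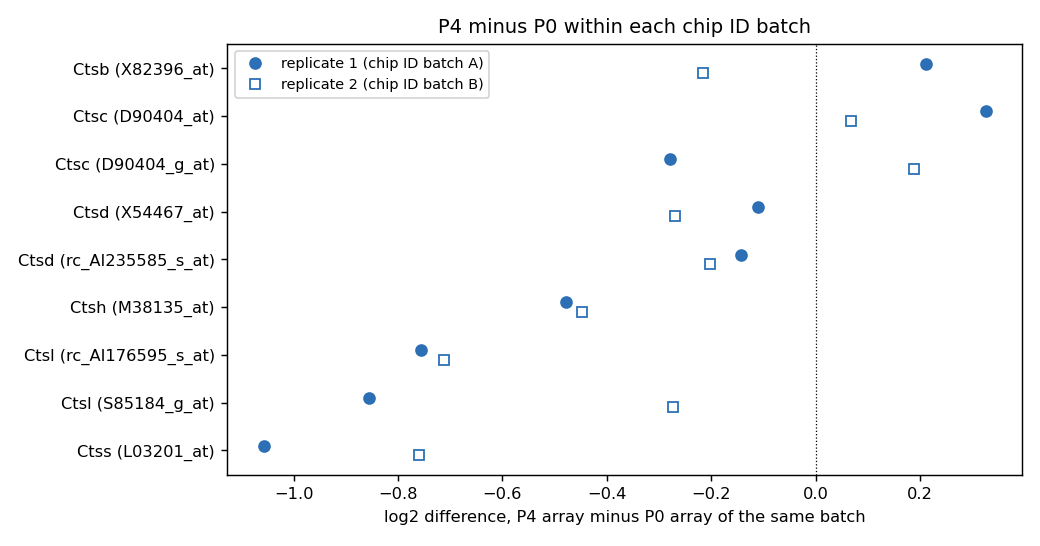
Log2 difference of the P4 array minus the P0 array within each chip ID batch, for the 9 cathepsin probe sets, with circles for replicate 1 (batch A) and squares for replicate 2 (batch B). Ctsl, Ctsh and Ctss lie below 0 in each batch, as must follow from their lack of overlap. Ctsb and the dimmer Ctsc probe set lie on opposite sides of 0.

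The order of levels differed between the genes. For Ctsb, Ctsc and Ctsd culture was highest, and P4 and P0 did not differ beyond their spread. For Ctsl P0 was highest on each probe set, with P4 lowest on the brighter one and cultured and P4 overlapping on the dimmer one. Ctsh had P4 lowest, with cultured and P0 overlapping, and Ctss had all 3 groups apart, with culture highest and P4 lowest. Centred on its mean over the 6 arrays, the Ctsb profile was at a root mean square log2 difference of 0.16 from that of Ctsd, 0.32 from Ctsc, 0.60 from Ctss, 0.47 from Ctsh and 0.59 from Ctsl. Ctsh and Ctsl were at 0.17 from each other. The median distance of all tested probe sets from Ctsb was 0.71, and that from Ctsl 0.42.

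The genes closest in this measure over the 6 arrays were listed for the brighter probe set of each cathepsin, as a description. Those nearest Ctsb were Ctsd (0.11, by its second probe set), the MHC class I gene RT1-CE16 (0.15) and P2ry6, a nucleotide receptor (0.15). Ctsd had RT1-CE16 (0.10), Ctsb (0.16) and Hmox1, the heme-degrading oxygenase (0.18). RT1-CE16 read 1468.6 and 992.9 in cultured ovaries, 468.2 and 594.5 in P4 ovaries, and 521.9 and 793.1 in P0 ovaries, and its probe set can match related class I genes. Ctss had Fxyd2, a subunit of the sodium pump (0.21), and the leukocyte genes Aif1 (0.24) and Cd53 (0.27). Cd53 read 219.3 and 86.9 in cultured ovaries, 12.3 and 19 in P4 ovaries, and 25.5 and 22.3 in P0 ovaries.

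Ctsc had neighbours of another kind: Krt18, a keratin of simple epithelia (0.22), Mx1, an interferon-induced GTPase (0.22), and Reg3g, a secreted lectin (0.24). The Krt18 probe set among these read 155 and 179.6 in cultured ovaries, 27.5 and 64.2 in P4 ovaries, and 36.8 and 58.5 in P0 ovaries. Ctsl lay nearest the metallothionein gene Mt3 (0.05), the annexin Anxa3 (0.09) and Glud1, glutamate dehydrogenase (0.11). Mt3 read 142.6 and 155.4 in cultured ovaries, 94.1 and 96.7 in P4 ovaries, and 149.5 and 169.6 in P0 ovaries. Ctsh lay nearest Milr1 (0.07), Asb1 (0.07) and Tnfrsf11b, the decoy receptor osteoprotegerin (0.11). The profiles share the same 6 arrays and 3 groups, and nothing about shared function was measured.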

How the data were processed

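Total RNA of whole rat ovaries was labelled with biotin and hybridized to 6 short-oligonucleotide arrays by the manufacturer's procedures, per the labels' protocols. The authors deposited linear probe set intensities. On every array the mean left after trimming 2% of values at each end was 125.2. The algorithm is not given in the sources used here, and no detection calls were used. The small number of arrays limits precision, with a median standard error of 0.26 for log2 changes.

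Before taking log2, 7.7 was added to each value, which is the table's 20th percentile. The 59 control probe sets and the lowest 30% of the others by mean log2 value were left out, and 6118 were tested. Symbols came from the array annotation, matched by gene number to RefSeq for 6994 probe sets, with 0 changed. The 6 arrays were fitted together, with a mean for each of the 3 groups, in limma 3.58.1 (R 4.3.3; 3 residual and 6.45 prior degrees of freedom, variance trend), and two-sided p values were adjusted by Benjamini-Hochberg over all tested probe sets. Calls used 0.05. An exact permutation test of 2 against 2 arrays cannot go below 0.33. The fit was tested on simulated data.

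The chip batch, which the labels give P4 and P0 arrays of one replicate number in common, served as a block in an added fit of those 4 arrays. Their deviations from group means correlated at 0.33 across probe sets. The block fit leaves fewer residual degrees of freedom than the main fit. Its p values rest largely on the spread of other probe sets, so they are not a sturdier test. Without a block, the p values rest on the spread within all 3 groups together, moderated by that of other probe sets of like intensity. Arrays of a group differ in both pool and chip batch. The cathepsins, the 16 gene lists and the tests were chosen with earlier results of these data known. Lists were counted on the tested probe set of highest mean per gene, and described without set tests. Genes named are the cathepsins, from each list at most 4 genes ranked by p in a comparison, and the 3 genes nearest each cathepsin. Ptprc, Cd14, Coro1a, Csf1r and Itgam fall outside this rule and were named after their values were seen.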

Additional observations from a re-analysis of the deposited data

How the results depend on the processing

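Each result was recomputed under 10 other settings and without each array. The number of probe sets called between P4 and P0 was 66, and became 23 with no filter on dim probe sets, 29 with no trend in the prior variance, 23 with only the 4 arrays compared, 335 with the chip batch as a random block, 314 with the replicate block, and 15 to 55 without 1 array. Between cultured and P0 it was 332, with 566 under the replicate block and 90 to 353 without 1 array. Between cultured and P4 it was 170, with 86 to 193 without 1 array. The cathepsin calls between P4 and P0 were 0, and became 1 with the chip batch as a random block (Ctsl) and 2 with the replicate block (Ctsl, Ctss), and stayed at 0 to 0 without 1 array. Between cultured and P0 they were 5, and 2 with no filter, with quantile normalization or with no trend, and 0 to 5 without 1 array. Between cultured and P4 they were 3, and 5 with the random block, and 1 to 4 without 1 array. Apart from the fewer probe sets or arrays in some of these fits, the cause was not tested.

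Cultured arrays share only a number with the others: their replicate deviations correlated at -0.13 with those of P0 and -0.05 with those of P4. The replicate block there gave 6 cathepsin calls against P0 and 4 against P4. Pairing cultured replicate 2 with P0 replicate 1, an alternative chosen after seeing the data, gave 563 calls in all and 6 among the cathepsins. Signs of cathepsin changes turned only without 1 array. For P4 minus P0 these ranged from -0.32 to 0.32 for Ctsb, from -0.21 to 0.60 and -0.41 to 0.32 for Ctsc, and from -0.53 to 0.15 and -0.383 to 0.0377 for Ctsd. For cultured minus P0 the range was -0.0401 to 0.308 for Ctsh, and for cultured minus P4 it was -0.18 to 0.47 for the dimmer Ctsl probe set. Quantile normalization moved the median of all probe sets by under 0.1.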
